A study of Mus musculus with 9 samples.

Results

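The let-7 family guide strands are the 9 mature miRNAs mmu-let-7a-5p, let-7b-5p, let-7c-5p, let-7d-5p, let-7e-5p, let-7f-5p, let-7g-5p, let-7i-5p and mmu-miR-98-5p, which were taken by name from a table of 1966 mature mouse miRNAs, of which 909 were detected in some library. All 9 had counts in each of 9 small RNA libraries made from total RNA of quadriceps, a thigh muscle, from mice whose labels give an age of 90 days, slightly above the age given in weeks in the study's text. The 3 WT mice were C57BL/6J with both Mbnl genes intact. The 3 Mbnl1KO mice were C57BL/6J, homozygous for Mbnl1 deltaE3 and wild type for Mbnl2. The Mbnl2KO mice carried the strain label B6.C-Tg(CMV-cre)1Cgn/J and were wild type for Mbnl1, and their Mbnl2 alleles were given as deltaE2/deltaE2 in replicate 1, deltaE2/deltaE3 in replicate 2 and deltaE2/deltaE4 in replicate 3. The study's text instead names a single homozygous deletion, that of the first replicate, for the whole group, so that the alleles of replicates 2 and 3 are uncertain. The CMV-cre strain, a line in which a broadly active viral promoter drives Cre recombinase, is named for the Mbnl2KO mice only, so that strain and Mbnl2 genotype cannot be told apart. The labels number the libraries of a group as replicates, name no batch and do not tie libraries to single animals, so that p-values measure the spread between these libraries. The MBNL proteins bind RNA, govern alternative splicing in muscle and become sequestered by expanded CUG repeats in myotonic dystrophy. Their mRNAs were not measured in these libraries, so the genotypes could not be checked on the targeted genes.

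A miRNA precursor folds into a hairpin that Drosha and Dicer cut into a short duplex. One strand, the guide, is loaded into Argonaute and pairs with target mRNAs mostly through bases 2 to 8 from its 5′ end, the seed, while the other strand, the passenger, is largely degraded. let-7 miRNAs are among the most conserved in animals, accumulate as tissues differentiate, and repress growth and stem cell genes such as Lin28, Hmga2, Ras and Myc. LIN28 in turn blocks the maturation of let-7 precursors.

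The mature sequences are shown because they define the family and because several members differ by a single base, which bears on how reads were assigned. They were copied from RefSeq's miRNA annotation of GRCm38.p6, in which all 9 names were found, and are written 5′ to 3′ with the seed in capitals:
mmu-let-7a-5p: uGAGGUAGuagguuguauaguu
mmu-let-7b-5p: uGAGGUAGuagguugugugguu
mmu-let-7c-5p: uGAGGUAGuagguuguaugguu
mmu-let-7d-5p: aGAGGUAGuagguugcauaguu
mmu-let-7e-5p: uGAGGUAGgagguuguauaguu
mmu-let-7f-5p: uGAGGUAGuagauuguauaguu
mmu-let-7g-5p: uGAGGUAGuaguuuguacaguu
mmu-let-7i-5p: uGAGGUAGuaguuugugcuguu
mmu-miR-98-5p: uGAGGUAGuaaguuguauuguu

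All 9 had the same seed and a length of 22 bases. With positions counted from 1 at the 5′ end and let-7a-5p as the reference, let-7c-5p differed only by A19G, let-7e-5p only by U9G and let-7f-5p only by G12A. let-7b-5p carried A17G and A19G, let-7d-5p carried U1A and U16C, let-7g-5p carried G12U and U18C, and miR-98-5p carried G11A and A19U. let-7i-5p was the farthest from let-7a-5p, with G12U, A17G, U18C and A19U. Among 1679 mature names in the RefSeq table, 11 had this seed. The other 2 were let-7k and miR-1961, both listed at 0 in every library, where a count of 0 allows up to 3 reads for counting error alone. Since the table also lists miRNAs known to be abundant in muscle or vessels, such as miR-486a-5p and miR-126a-3p, at 0 in every library, a 0 may come from how reads were counted and does not show absence. let-7a-5p and let-7c-5p share their first 18 bases and are the closest pair in this respect, so that a read ending before base 19 would fit both.

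The guides come from 12 precursor loci. Each was placed on GRCm39 by its gene annotation, and each annotated hairpin was identical to the RefSeq hairpin. On chromosome 13, minus strand, let-7a-1 (chr13:48691655-48691748), let-7f-1 (chr13:48691305-48691393) and let-7d (chr13:48689488-48689590) overlap exons of transcripts of the lncRNA 6720427I07Rik. let-7b (chr15:85591520-85591604) and let-7c-2 (chr15:85590804-85590898) overlap exons of transcripts of the lncRNA Lncppara on the plus strand. let-7f-2 (chrX:150695342-150695424) and miR-98 (chrX:150696210-150696317) lie in an intron of Huwe1, which encodes a ubiquitin ligase. The loci let-7a-2, let-7c-1 and let-7e belong to the conserved clusters that join a let-7 gene to a miR-99 or miR-100 gene and a miR-125 gene. Here let-7a-2 (chr9:41448012-41448107) is in an intron of Mir100hg, let-7c-1 (chr16:77396545-77396638) in an intron of Mir99ahg and let-7e (chr17:18050614-18050706) in an intron of Spaca6, all on the plus strand. let-7g (chr9:106056039-106056126) lies in an intron of Wdr82. let-7i (chr10:122821545-122821629, minus strand) overlaps an exon of a transcript of the lncRNA Gm63655 and lies in an intron of the transcribed pseudogene D630033A02Rik. let-7a-5p, let-7c-5p and let-7f-5p each have 2 source loci, and their counts could not be divided between them.

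The libraries held 4761271 to 6277018 counted reads, and 524 to 602 miRNAs had a count in each. miR-1a-3p, the dominant miRNA of striated muscle, accounted for between 69.7% and 71.3% of WT reads, between 61.4% and 68.6% of Mbnl1KO reads and between 67.2% and 73.7% of Mbnl2KO reads. The share left for all other miRNAs was thus larger in every Mbnl1KO library than in every WT library, while the Mbnl2KO range overlapped both. The part of miR-1a-3p in the results below was not tested, and each result that turns on it is given with libraries scaled in other ways. Of 7 skeletal muscle markers 6 had counts, and their summed normalized counts lay between 4549350 and 4838674 for WT, 3249478 and 4166261 for Mbnl1KO, and 3970437 and 5480477 for Mbnl2KO. The summed blood and immune markers (7 of 8 with counts) ranged over 2691 to 3150, 2771 to 3412 and 2937 to 3169 in the same order. The vessel wall and connective tissue markers (5 of 6 with counts) ranged over 35739 to 37848, 33925 to 48864 and 43958 to 49655. In Mbnl1KO against WT, edgeR called 2 of 5 tested muscle markers higher and 1 lower, 1 of 6 blood and immune markers higher and 3 lower, and 1 of 5 vessel wall and connective tissue markers lower, and the part of these in the let-7 values was not tested. miR-486a-5p, miR-142a-3p, miR-126a-3p and the neuronal miR-9-5p were listed at 0 in every library. Fewer cells of a type and less RNA per cell cannot be told apart in whole muscle.

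In WT muscle the guides spanned a wide range of levels, and 4 of them held most of the pool. Counts were normalized by edgeR's trimmed mean of M-values (TMM) over the 9 libraries. Since all members have the same length, their normalized counts were set side by side, although how efficiently each sequence is captured was not measured. The mean of the most abundant member over 9 libraries was 82.9 times that of the least abundant one. let-7f-5p, let-7g-5p, let-7a-5p and let-7c-5p together made up 81.1% to 84.0% of all let-7 guide reads in the 9 libraries. The lowest count of a member in a library was 927 reads, for which counting error is 3.28%. The median coefficient of variation of the members between libraries was larger, at 12.1% in WT, 9.85% in Mbnl1KO and 10.4% in Mbnl2KO.

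**Figure D1:**
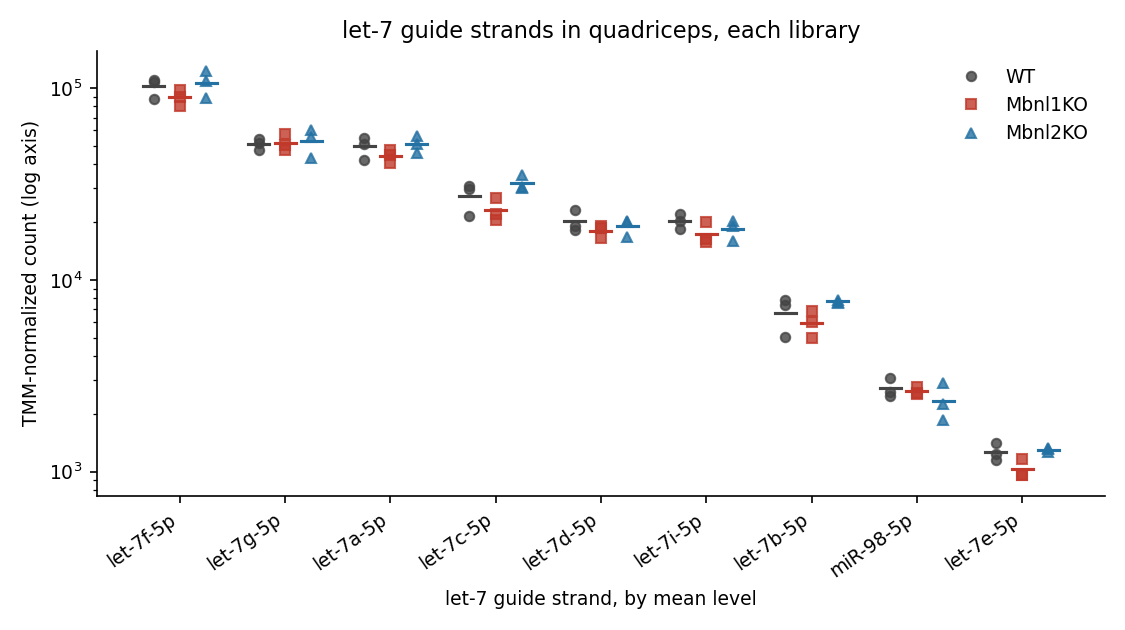
TMM-normalized counts (log axis) of the 9 let-7 guide strands, ordered by mean level, in each WT, Mbnl1KO and Mbnl2KO library. Points are single libraries and horizontal bars group means (n = 3). let-7f-5p is the highest in every group and let-7e-5p the lowest, and the groups of let-7b-5p and let-7c-5p are separate for Mbnl1KO and Mbnl2KO.

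let-7f-5p, from the chromosome 13 cluster and from Huwe1, was the highest in all 3 groups and held ranks 5 to 7 among all miRNAs. Its normalized counts were 107563, 87996 and 109958 in WT, 90136, 97859 and 80507 in Mbnl1KO, and 108849, 88056 and 122458 in Mbnl2KO. The groups overlapped, and WT replicate 2 and Mbnl2KO replicate 2 were the low libraries of their groups. let-7g-5p had 53970, 47437 and 51329 in WT, 50325, 57206 and 47285 in Mbnl1KO, and 55205, 42859 and 60618 in Mbnl2KO, with the ranges of all groups lying over each other. let-7a-5p had 51193, 42211 and 55038 in WT, 47691, 40500 and 44722 in Mbnl1KO, and 50915, 45695 and 56300 in Mbnl2KO. The lowest let-7a-5p value was in Mbnl1KO and the highest in Mbnl2KO. let-7g-5p and let-7a-5p followed let-7f-5p in this order in every group, but their ranges overlapped in each, at 1.03 times (WT), 1.17 times (Mbnl1KO) and 1.04 times (Mbnl2KO) for the ratio of means.

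let-7c-5p, from the chromosome 15 and 16 clusters, was next. It had 30762, 21534 and 29636 normalized counts in WT, 26623, 20586 and 21972 in Mbnl1KO, and 30596, 30015 and 35085 in Mbnl2KO. All Mbnl1KO libraries lay below all Mbnl2KO libraries, and both groups overlapped WT. WT replicate 2 was the only WT library within the Mbnl1KO range, while WT replicate 1 lay within the Mbnl2KO range. let-7b-5p, its neighbour on chromosome 15, had 7826, 5053 and 7374 in WT, 6867, 4962 and 6056 in Mbnl1KO, and 7612, 7878 and 7631 in Mbnl2KO. The pattern was like that of let-7c-5p, with Mbnl1KO below Mbnl2KO throughout and WT replicate 2 low.

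let-7d-5p, the third guide of the chromosome 13 cluster, had 19041, 18112 and 23227 in WT, 19162, 16444 and 18518 in Mbnl1KO, and 19880, 16743 and 20301 in Mbnl2KO. let-7i-5p had 20304, 18448 and 22081 in WT, 15646, 20048 and 16399 in Mbnl1KO, and 19102, 16008 and 20299 in Mbnl2KO. let-7d-5p and let-7i-5p were neighbours in level with overlapping ranges in every group (ratio of means 1.01 to 1.04), and no group stood apart from another for either. In WT, let-7i-5p also overlapped let-7c-5p above it.

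miR-98-5p, which lies beside let-7f-2 in Huwe1, had 2592, 2477 and 3095 in WT, 2753, 2539 and 2567 in Mbnl1KO, and 2249, 1867 and 2908 in Mbnl2KO, and the groups overlapped. let-7e-5p, the guide from Spaca6, had 1230, 1145 and 1415 in WT, 1162, 966 and 956 in Mbnl1KO, and 1321, 1317 and 1268 in Mbnl2KO. For let-7e-5p the Mbnl1KO libraries were below all Mbnl2KO libraries, and Mbnl1KO replicate 1 just exceeded the lowest WT library. From let-7i-5p or let-7d-5p down to let-7b-5p, miR-98-5p and let-7e-5p, neighbours in the order did not overlap in any group.

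The family sum showed no separation of the groups. The 9 guides added up to 294481, 244414 and 303152 normalized counts in WT (280683 ± 31707, SD, n = 3), 260366, 261112 and 238981 in Mbnl1KO (253486 ± 12567, SD, n = 3), and 295728, 250440 and 326867 in Mbnl2KO (291012 ± 38431, SD, n = 3). WT replicate 2 and Mbnl2KO replicate 2 lay within the Mbnl1KO range and the other libraries of those groups above it. With TMM computed over only the 6 libraries of each comparison, as in the fits, the difference of log2 means was -0.21 between Mbnl1KO and WT, 0.04 between Mbnl2KO and WT, and -0.22 between Mbnl1KO and Mbnl2KO. As a share of all reads, the family made up 4.67% ± 0.503 (SD, n = 3) in WT, 4.98% ± 0.704 in Mbnl1KO and 4.77% ± 0.109 in Mbnl2KO. On that scale the sign turned, with differences of log2 means of 0.09 for Mbnl1KO against WT and 0.05 for Mbnl1KO against Mbnl2KO, and with miR-1a-3p left out of the totals they were -0.14 and -0.17. With DESeq2's size factors the Mbnl1KO libraries lay below all libraries of WT (-0.24) and of Mbnl2KO (-0.29). The same separation appeared in TMM-normalized counts without WT replicate 2 (-0.31 against WT) or without Mbnl2KO replicate 2 (-0.34 against Mbnl2KO). Without WT replicate 2, the difference between Mbnl2KO and WT became -0.05, and without Mbnl2KO replicate 3 it became -0.03. No test was run on the sum.

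**Figure D2:**
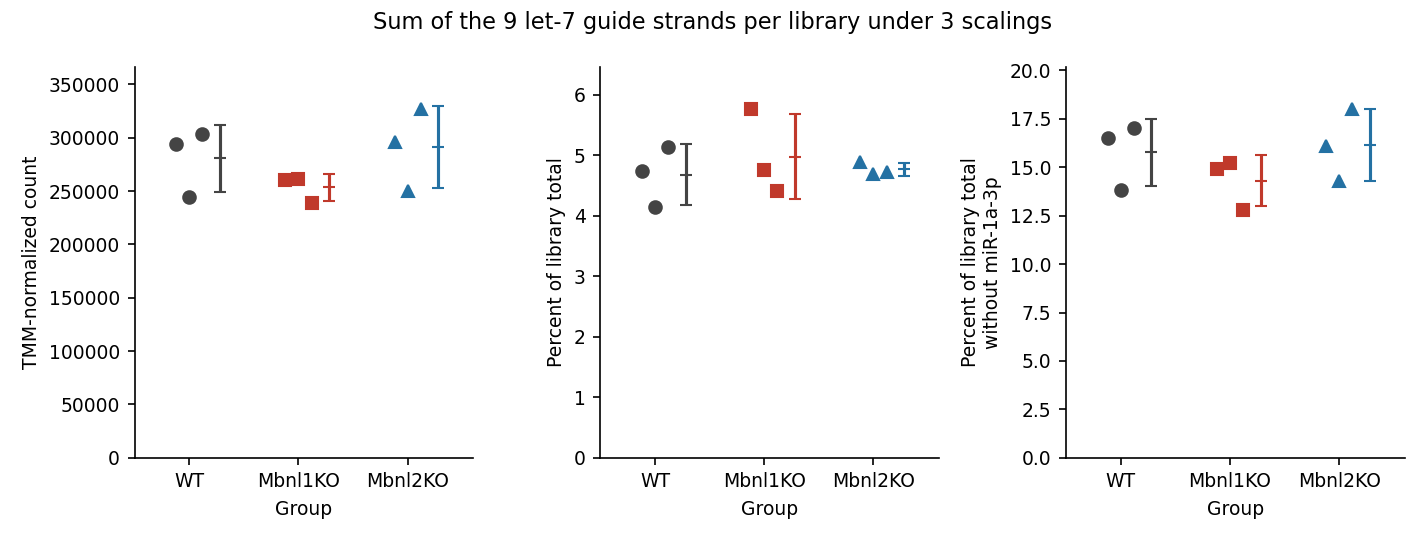
Sum of the 9 let-7 guide strands in each library as TMM-normalized counts, as percent of all reads, and as percent of all reads other than miR-1a-3p. Points are libraries, and bars at the side are the mean ± SD of the group (n = 3). Mbnl1KO is lower on average in the left and right panels and higher in the middle one, and the groups overlap in all 3.

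Loss of Mbnl1 was compared with WT to ask which let-7 guides depend on it in muscle. By edgeR's quasi-likelihood test none of the 9 guides had an adjusted p under 0.05 (Benjamini-Hochberg over 317 tested miRNAs), while 106 miRNAs had (33.4%), 46 of them lower in Mbnl1KO (14.5%). DESeq2's Wald test called 1 of 9, let-7e-5p (adjusted p = 0.0387). At an unadjusted p under 0.05, 2 of 9 passed, let-7c-5p and let-7e-5p, against 42.6% of all tested. No guide had groups that did not overlap, against 42.6% of all tested. All 9 fold changes were below 0, as were 50.8% of all tested, and their median was -0.25 against -0.01 for all tested miRNAs.

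The lowest values in Mbnl1KO against WT were those of let-7e-5p (log2 fold change -0.36, SE 0.16, edgeR adjusted p = 0.066), let-7c-5p (-0.31, SE 0.151, adjusted p = 0.0921) and let-7i-5p (-0.29, SE 0.151, adjusted p = 0.123). let-7f-5p and let-7b-5p were at -0.25, let-7a-5p at -0.23 and let-7d-5p at -0.22. miR-98-5p was at -0.12 and let-7g-5p at -0.05. For let-7g-5p the group mean of Mbnl1KO, 51605, was slightly above that of WT, 50912, because the normalized counts were scaled over 9 libraries and the fold change over 6. With library totals in place of TMM, 8 of 9 guides turned to 0.00 to 0.25 and only let-7e-5p stayed below 0 (-0.05), while the median of all tested miRNAs moved to 0.30, so that all 9 remained below that median. Leaving out WT replicate 2 brought let-7c-5p below the threshold (-0.47, edgeR adjusted p = 0.0323). Leaving out Mbnl1KO replicate 1 did so for let-7c-5p (-0.44, adjusted p = 0.033) and let-7e-5p (-0.47, adjusted p = 0.0325). Without Mbnl1KO replicate 2 let-7i-5p was called (-0.42, adjusted p = 0.0295). The count of called guides was thus 0 to 2 depending on which library was left out.

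Loss of Mbnl2 was compared with the same WT libraries. In this comparison no guide passed the edgeR threshold, against 17 of 293 tested miRNAs (5.80%), of which 7 were lower in Mbnl2KO (2.39%). No guide reached an unadjusted p of 0.05 either, against 17.7% of all tested, and DESeq2's Wald test called none. The groups of all guides overlapped, against 24.9% of all tested miRNAs whose groups did not. The log2 fold changes ranged from -0.22 for miR-98-5p (SE 0.163, edgeR adjusted p = 0.526) to 0.21 for let-7c-5p (SE 0.146, adjusted p = 0.495). let-7b-5p was at 0.18, let-7f-5p at 0.06, let-7g-5p at 0.05, let-7a-5p and let-7e-5p at 0.03, let-7d-5p at -0.09 and let-7i-5p at -0.14. Thus 3 of 9 were below 0, against 48.1% of all tested, and the median of 0.03 was near that of all tested miRNAs, 0.01. Without WT replicate 2, or without Mbnl2KO replicate 3, 6 of 9 were below 0 and the median was -0.03.

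**Figure D3:**
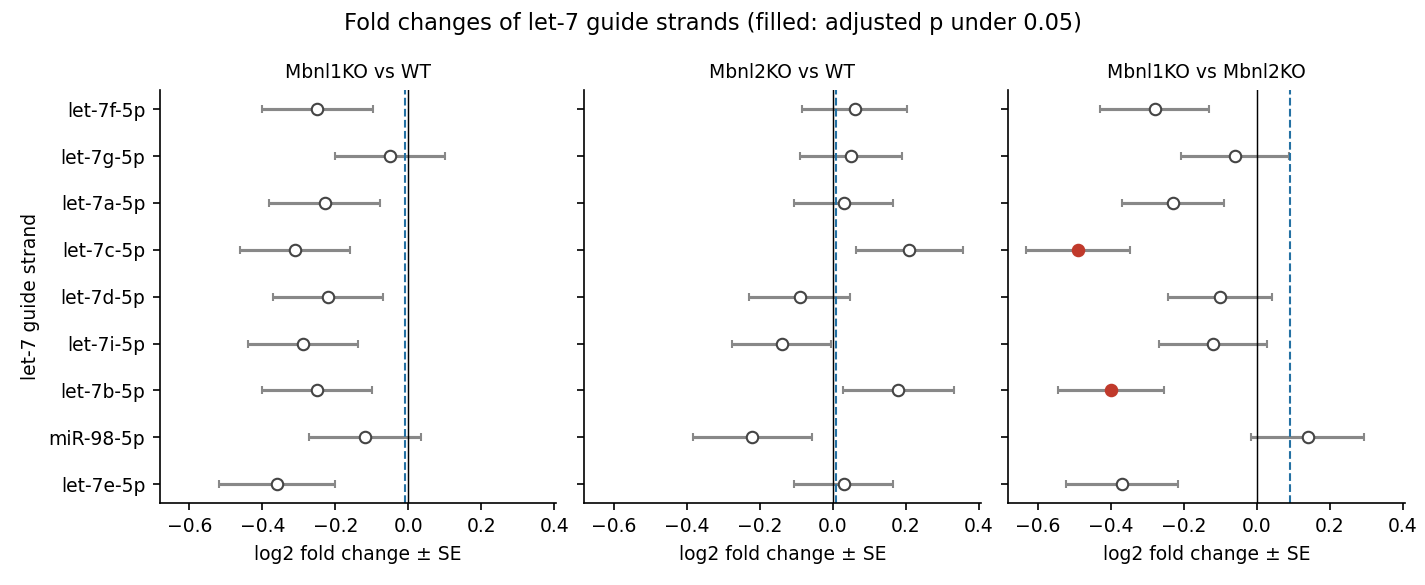
log2 fold changes ± SE of the 9 guides from edgeR's quasi-likelihood fits in the 3 comparisons (first group over second). Filled points passed an adjusted p of 0.05 and dashed lines mark the median of all tested miRNAs. All points are left of 0 in Mbnl1KO against WT, and let-7c-5p and let-7b-5p are filled in Mbnl1KO against Mbnl2KO.

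The direct comparison of both knockouts called 2 of 9 guides, let-7c-5p and let-7b-5p, which have neighbouring genes on chromosome 15 and differ from let-7a-5p by the shared A19G. Both were lower in Mbnl1KO than in Mbnl2KO. The log2 fold change was -0.49 for let-7c-5p (SE 0.142, edgeR adjusted p = 0.0112) and -0.40 for let-7b-5p (SE 0.145, adjusted p = 0.0387). Of 309 tested miRNAs 83 were called (26.9%), 32 of them lower in Mbnl1KO (10.4%), beside 2 of 9 guides, both lower. let-7e-5p was at -0.37 (SE 0.154, adjusted p = 0.075) and was the third guide with an unadjusted p under 0.05, against 38.2% of all tested. The same 3 guides had groups that did not overlap, against 46.0% of all tested. let-7f-5p was at -0.28, let-7a-5p at -0.23, let-7i-5p at -0.12, let-7d-5p at -0.10 and let-7g-5p at -0.06, while miR-98-5p was at 0.14. Thus 8 of 9, or all but miR-98-5p, were below 0, against 46.6% of all tested, and the median of the guides was -0.23 against 0.09 for all tested miRNAs. Markers of several cell types moved in the same comparison, in which edgeR called 2 of 5 tested muscle markers higher in Mbnl1KO, 1 of 6 blood and immune markers higher and 3 lower, and 1 of 5 vessel wall and connective tissue markers lower. Among them miR-206-3p, a muscle miRNA, was at 1.07, miR-155-5p, an immune miRNA, at 1.32, and miR-223-3p, a myeloid miRNA, at -0.96, and their part in the let-7 values was not tested.

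The let-7c-5p call held in all 6 fits that left out 1 library and in all other alternatives except library totals without TMM (-0.20, adjusted p = 0.425). The let-7b-5p call was lost without Mbnl1KO replicate 2 (-0.29, edgeR adjusted p = 0.15), Mbnl1KO replicate 3 (-0.43, adjusted p = 0.0564) or Mbnl2KO replicate 3 (-0.45, adjusted p = 0.0552). It was also lost with library totals (-0.12), with all 9 libraries in 1 fit (-0.37), with every miRNA of at least 1 count (-0.40, adjusted p = 0.0634), and with totals that left out miR-1a-3p (-0.35). The same held with the replicate number as a block (-0.41, edgeR adjusted p = 0.0519). let-7e-5p was called by DESeq2's Wald test (adjusted p = 0.0196), with DESeq2's size factors (adjusted p = 0.0208) and without Mbnl1KO replicate 1 (adjusted p = 0.0389), and let-7f-5p without Mbnl2KO replicate 2 (-0.41, adjusted p = 0.0318). With library totals no guide was called, only let-7c-5p, let-7b-5p and let-7e-5p stayed below 0, and the median of all tested miRNAs was 0.36.

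**Figure D4:**
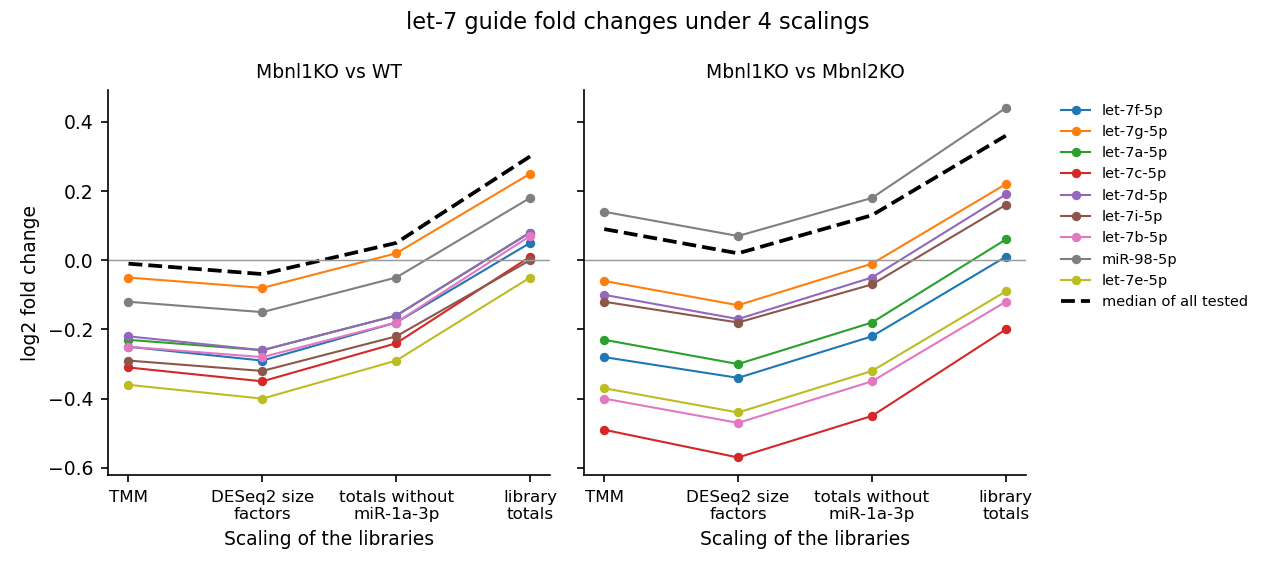
log2 fold changes of each guide in Mbnl1KO against WT (left) and against Mbnl2KO (right) with libraries scaled by TMM, DESeq2's size factors, totals without miR-1a-3p, and library totals. The dashed line is the median of all tested miRNAs, which rises from -0.01 to 0.30 (left) and from 0.09 to 0.36 (right) between TMM and library totals, and the guides rise with it.

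The composition of the let-7 pool asks whether single guides change beside the rest of the family, and it does not depend on the scaling of the libraries. let-7f-5p made up 36.3% ± 0.262 of let-7 guide reads in WT, 35.3% ± 1.98 in Mbnl1KO and 36.5% ± 1.19 in Mbnl2KO (SD, n = 3). let-7g-5p made up 18.2% ± 1.24, 20.3% ± 1.38 and 18.1% ± 0.864 in the same order, and let-7a-5p 17.6% ± 0.481, 17.5% ± 1.75 and 17.6% ± 0.592. The shares of these 3 guides overlapped between WT and each knockout, but all Mbnl1KO shares of let-7g-5p (19.3% to 21.9%) were above all its Mbnl2KO shares (17.1% to 18.7%). let-7c-5p made up 9.68% ± 0.822 in WT, 9.1% ± 1.17 in Mbnl1KO and 11.0% ± 0.857 in Mbnl2KO, and all Mbnl1KO shares (7.88% to 10.2%) were below all Mbnl2KO shares (10.3% to 12.0%). let-7i-5p made up 7.24% ± 0.328, 6.85% ± 0.834 and 6.35% ± 0.129, and all Mbnl2KO shares (6.21% to 6.46%) were below all WT shares (6.89% to 7.55%). let-7d-5p made up 6.54% to 7.18% on average and let-7b-5p 2.36% to 2.68%. miR-98-5p made up 0.972% ± 0.0792 in WT, 1.03% ± 0.0544 in Mbnl1KO and 0.799% ± 0.0792 in Mbnl2KO, and all Mbnl2KO shares (0.746% to 0.890%) were below all Mbnl1KO shares (0.973% to 1.07%). let-7e-5p made up 0.406% to 0.454% on average. In normalized counts, 46.0% of all tested miRNAs had groups that did not overlap in Mbnl1KO against Mbnl2KO. In Mbnl2KO against WT it was 24.9%. Such separations were not counted for all miRNAs on the scale of shares. Those listed here therefore do not set single guides apart from other miRNAs.

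In edgeR fits with the family sum as the library size, no guide was called in any comparison. The share of all tested miRNAs called in those fits was 28.4% for Mbnl1KO against WT, 1.37% for Mbnl2KO against WT and 20.7% for Mbnl1KO against Mbnl2KO. The value farthest from 0 relative to the family was that of miR-98-5p in Mbnl1KO against Mbnl2KO, 0.37 (SE 0.167, edgeR adjusted p = 0.12). Next were miR-98-5p in Mbnl2KO against WT, -0.28 (SE 0.2, edgeR adjusted p = 0.737), and let-7c-5p in Mbnl1KO against Mbnl2KO, also -0.28 (SE 0.146, edgeR adjusted p = 0.194). miR-98-5p was the only guide with an unadjusted p under 0.05 in these 3 fits. For let-7g-5p the values of Mbnl1KO were 0.16 against WT and 0.17 against Mbnl2KO, and for let-7i-5p that of Mbnl2KO against WT was -0.19 (SE 0.172, edgeR adjusted p = 0.737). Since let-7a-5p and let-7c-5p share their first 18 bases, their reads were also added together, and the merged share lay between 26.1% and 27.9% for WT, 23.4% and 28.5% for Mbnl1KO, and 27.6% and 30.2% for Mbnl2KO. On that merged scale the Mbnl1KO and Mbnl2KO libraries overlapped.

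**Figure D5:**
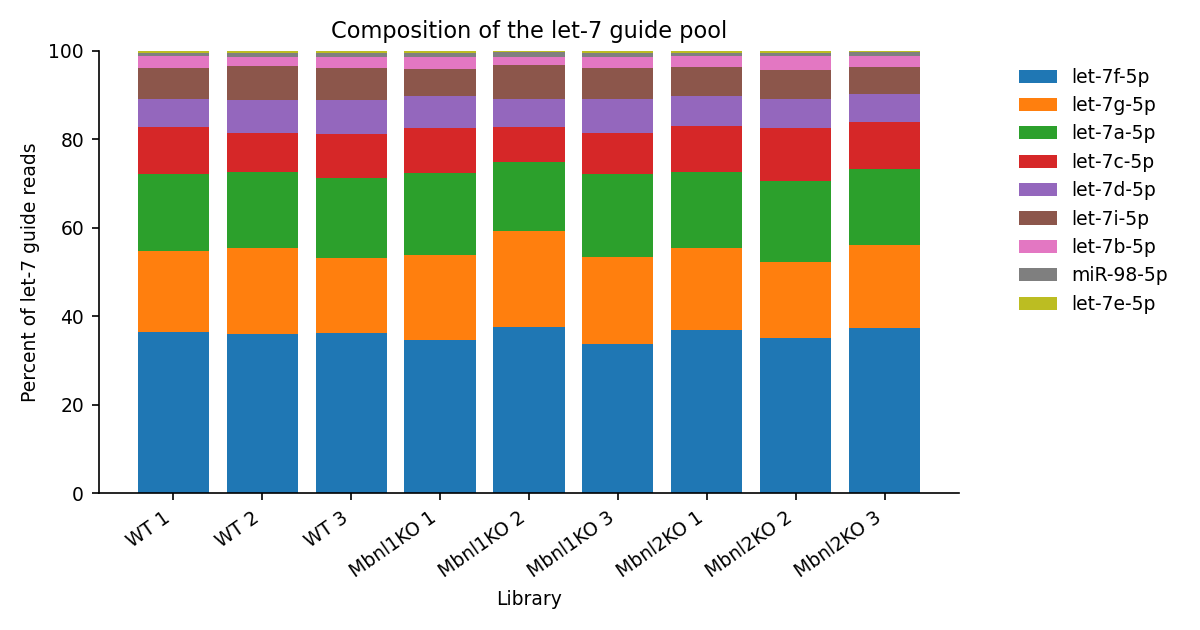
Share of each let-7 guide in all let-7 guide reads of a library (percent, stacked to 100). Bars are the 9 single libraries. let-7f-5p takes 33.7% to 37.5% of the reads in every library, and no guide was called in the fits relative to the family.

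The passenger strands of the same hairpins were scarce except for let-7d-3p. All 12 passenger strands had a count in at least 1 library, 7 were abundant enough to be tested, and together they made up 0.785% to 1.31% of the reads of both strands. let-7d-3p had 3362, 2915 and 2675 normalized counts in WT, 2491, 1882 and 2269 in Mbnl1KO, and 2319, 2335 and 2268 in Mbnl2KO, so that all libraries of both knockouts were below all WT libraries. It was lower in Mbnl1KO (log2 fold change -0.51, SE 0.154, edgeR adjusted p = 0.00463) and was at -0.38 in Mbnl2KO (SE 0.13, adjusted p = 0.114). Both comparisons share the WT libraries. The Mbnl1KO call was lost with library totals (-0.18, adjusted p = 0.497) and without WT replicate 1, the highest library (-0.37, adjusted p = 0.119). The guide let-7d-5p had 5.66, 6.21 and 8.68 reads per let-7d-3p read in WT, 7.69, 8.74 and 8.16 in Mbnl1KO, and 8.57, 7.17 and 8.95 in Mbnl2KO. The groups overlapped in this ratio because of WT replicate 3. let-7i-5p had 201, 200 and 262 reads per let-7i-3p read in WT, 147, 185 and 119 in Mbnl1KO, and 167, 158 and 191 in Mbnl2KO. Every knockout library was thus below every WT library for let-7i, while the groups overlapped for miR-98 and let-7e. These ratios were tested in no comparison. Normalized counts of let-7i-3p were above those of WT in all libraries of both knockouts, only just so in Mbnl2KO replicate 2, without being called, at 117 in Mbnl1KO (edgeR adjusted p = 0.38) and 107 in Mbnl2KO (edgeR adjusted p = 0.617) against 92.6 in WT on average. No passenger strand was called in Mbnl2KO against WT or in Mbnl1KO against Mbnl2KO, while DESeq2's Wald test called 1 (let-7d-3p in Mbnl2KO against WT, adjusted p = 0.0483) and 0. The share of all tested miRNAs called by edgeR was 33.4% in Mbnl1KO against WT, where 1 of 7 passenger strands was called, and 5.80% and 26.9% in these 2 comparisons. At an unadjusted p under 0.05 in edgeR's test there were 3 of 7 in Mbnl1KO against WT (42.6% of all tested). There were 1 of 7 in Mbnl2KO against WT (17.7%) and 0 of 7 in Mbnl1KO against Mbnl2KO (38.2%). Groups did not overlap for 3 of 7 in Mbnl1KO against WT (42.6% of all tested) and 2 of 7 in Mbnl2KO against WT (24.9%). In Mbnl1KO against Mbnl2KO the groups of 1 of 7 did not overlap (46.0%). let-7c-1-3p, which is included in these counts, had 7 to 10 reads in Mbnl1KO, 8 to 21 in WT and 12 to 14 in Mbnl2KO. In both comparisons with Mbnl1KO it reached the minimum level for testing only through the other group, where it was higher. Its fits are therefore not given. let-7a-1-3p and let-7c-2-3p have identical mature sequences and are separate rows of the table, so that their reads cannot be told apart.

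The clusters that join let-7 to miR-99, miR-100 and miR-125 genes supplied 5 further guides. miR-99 and miR-100 guides are known to target Mtor and Igf1r, and miR-125b has been linked to myoblast differentiation. By edgeR with TMM, 2 of these 5 guides were lower in Mbnl1KO than in WT (14.5% of all tested), 1 was lower in Mbnl2KO than in WT (2.39%), and 1 was lower in Mbnl1KO than in Mbnl2KO (10.4%). miR-100-5p, which shares Mir100hg with let-7a-2, had 6633, 7402 and 6865 normalized counts in WT, 4843, 3531 and 5016 in Mbnl1KO, and 3968, 5603 and 5141 in Mbnl2KO. Every knockout library was below every WT library, with log2 fold changes of -0.71 in Mbnl1KO (SE 0.15, edgeR adjusted p = 1.94e-05) and -0.52 in Mbnl2KO (SE 0.131, adjusted p = 0.0265). In Mbnl2KO against WT edgeR also called 1 of 5 tested muscle markers higher (miR-206-3p, 0.89, adjusted p = 0.00213), 0 of 6 blood and immune markers, and 1 of 5 vessel wall and connective tissue markers higher (miR-143-3p, 0.47, adjusted p = 0.0274), and the part of these in the values was not tested. let-7a-5p, to which let-7a-2 contributes beside let-7a-1, was at -0.23 and 0.03 in the same comparisons and was not called. The miR-100-5p call in Mbnl1KO was lost with library totals only (-0.40, adjusted p = 0.0829), while that in Mbnl2KO was lost with library totals (-0.51, adjusted p = 0.0995) and without WT replicate 2 (-0.46, adjusted p = 0.155), WT replicate 3 (-0.52, adjusted p = 0.0541) or Mbnl2KO replicate 1 (-0.39, adjusted p = 0.157).

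miR-125b-5p, from both Mir100hg and Mir99ahg, had 17836, 19863 and 16998 in WT, 15357, 12799 and 14805 in Mbnl1KO, and 17498, 20029 and 18483 in Mbnl2KO. All Mbnl1KO libraries were below those of both other groups, with log2 fold changes of -0.42 against WT (SE 0.151, edgeR adjusted p = 0.0203) and -0.41 against Mbnl2KO (SE 0.139, adjusted p = 0.0287). These calls were lost with library totals (-0.11 and -0.14). The call against WT was also lost with totals that left out miR-1a-3p and without WT replicate 1 (-0.40, edgeR adjusted p = 0.0714), WT replicate 2 (-0.36, adjusted p = 0.0918), Mbnl1KO replicate 2 (-0.35, adjusted p = 0.066) or Mbnl1KO replicate 3 (-0.42, adjusted p = 0.0551), and the call against Mbnl2KO without Mbnl1KO replicate 2 (-0.35, adjusted p = 0.0899). With the replicate number as a block, the call against Mbnl2KO was lost as well. The 3p strands tell the loci of miR-125b apart. Of the 6 3p strands of the cluster partners, edgeR called 1 of 5 tested lower in Mbnl1KO than in WT (14.5% of all tested) and 1 of 4 lower in Mbnl1KO than in Mbnl2KO (10.4%), both times miR-125b-1-3p, and none of 3 in Mbnl2KO against WT, where 0 had an unadjusted p under 0.05 and DESeq2's Wald test called 0. In Mbnl1KO against WT miR-99b-3p, from Spaca6, was at -0.76 (edgeR adjusted p = 0.0521), and it became a second call with DESeq2's size factors (-0.79, edgeR adjusted p = 0.0381), without WT replicate 1 (-0.93, adjusted p = 0.0414) and without Mbnl1KO replicate 2 (-0.87, adjusted p = 0.0363). miR-125b-1-3p, from Mir100hg, was lower in Mbnl1KO than in WT (log2 fold change -1.20, SE 0.349, edgeR adjusted p = 0.00297), on 18, 17 and 22 reads against 36, 27 and 40. miR-125b-2-3p, from Mir99ahg near let-7c-1, was at 0.23 (SE 0.335, adjusted p = 0.646). Whether these strands differed from each other was not tested. The miR-125b-1-3p call held in all alternatives that gave it a value, and that against Mbnl2KO (-0.95, SE 0.353, adjusted p = 0.0442) held in 2 of 13, 1 of them without Mbnl2KO replicate 1 (-1.27, adjusted p = 0.0187), while leaving out any other library gave adjusted p-values of 0.0641 to 0.268. The 3p strand of miR-100, also from Mir100hg, was too scarce for the test in Mbnl2KO against WT. miR-100-3p had 20, 18 and 13 reads in WT, 14, 5 and 19 in Mbnl1KO, and 3, 4 and 2 in Mbnl2KO, so that all Mbnl2KO libraries were below all others. With every miRNA of at least 1 count tested, it was at -2.47 in that comparison (edgeR adjusted p = 0.00395). Fits with a filter that it passed only through WT, where it was highest, are not given. It was at -0.78 in Mbnl1KO against WT (SE 0.406, edgeR adjusted p = 0.123).

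miR-99a-5p, from Mir99ahg with let-7c-1, was at -0.17 in Mbnl1KO and -0.09 in Mbnl2KO against WT. miR-99b-5p and miR-125a-5p, which flank let-7e in Spaca6, were at -0.19 and -0.07 in Mbnl1KO and at 0.13 and 0.24 in Mbnl2KO, beside -0.36 and 0.03 for let-7e-5p itself. In Mbnl1KO against Mbnl2KO these 3 were at -0.05, -0.30 and -0.28. None of them was called by edgeR with TMM in any comparison. In Mbnl1KO against Mbnl2KO, edgeR with DESeq2's size factors called miR-99b-5p (-0.35, adjusted p = 0.0482) and miR-125a-5p (-0.34, adjusted p = 0.0291), and DESeq2's Wald test called miR-125a-5p (-0.30, adjusted p = 0.0433). Their fold changes in Mbnl1KO against WT turned above 0 with library totals (0.13, 0.12 and 0.24), as those of most let-7 guides did. Against Mbnl2KO miR-99a-5p turned to 0.21 with library totals, while miR-99b-5p and miR-125a-5p stayed below 0 in every alternative.

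The 3 miRNAs below, none of them a family member, had the profiles nearest to that of the family sum over the 9 libraries among 310 compared. Likeness was measured as the root mean square difference of log2(normalized count + 1), each profile centred on its own mean. miR-1839-5p differed by 0.0995, miR-25-3p by 0.113 and miR-361-3p by 0.131, against a median of 0.382 for all compared. The guides themselves differed from their sum by 0.0492 (let-7f-5p) to 0.2005 (let-7b-5p), followed by 0.186 for miR-98-5p. In all, 34 miRNAs, members included, were nearer to the sum than let-7b-5p was, and let-7f-5p is the largest component of the sum.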

How the data were processed

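The authors deposited raw counts of reads per mature miRNA in 9 quadriceps libraries (3 WT, 3 Mbnl1KO, 3 Mbnl2KO), without normalization. Libraries were made with a NEXTflex small RNA kit. The study's methods describe adapter clipping, alignment in sense to miRBase precursors without mismatch and summing over each mature miRNA. Whether this made the deposited counts is not stated. A single base decides between some members, so trimmed or mismatched reads can shift counts among them. The processing notes name DESeq2.

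Members and all lists were chosen with earlier results of these data known. Named miRNAs were the 9 members, their passenger strands, 5 cluster partner guides, miRNAs sharing the seed, and the 3 nearest profiles. Cell type markers and 3p strands of the cluster partners were named outside this rule, after their values were seen. Fits used 6 libraries at a time, the 2 groups compared, and edgeR 4.0.16 in R 4.3.3 (robust quasi-likelihood, TMM). A miRNA was tested where its normalized count averaged more than 10. The p-values were adjusted by Benjamini-Hochberg over all tested miRNAs and measure the spread between these libraries. SE was the log2 fold change divided by the square root of F. Normalized counts and group overlap came from TMM over 9 libraries. The fits were tried on simulated counts with changes larger than that of any let-7 guide here. Their power for changes as small as those of the guides was not tested. DESeq2 1.42.0 served as an alternative. Alternatives were other scalings, tests, filters, a replicate block and each library left out.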

Additional observations from a re-analysis of the deposited data

How the results depend on the processing

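Directions in both comparisons with Mbnl1KO depended on the scaling, while in Mbnl2KO against WT 3 of 9 guides were below 0 under each scaling and by DESeq2's Wald test. With library totals without TMM, the log2 fold changes in Mbnl1KO against WT became 0.08 for let-7a-5p, 0.07 for let-7b-5p, 0.01 for let-7c-5p, 0.08 for let-7d-5p, 0.05 for let-7f-5p, 0.25 for let-7g-5p, 0.00 for let-7i-5p and 0.18 for miR-98-5p, and 0.13 for miR-99a-5p, 0.12 for miR-99b-5p and 0.24 for miR-125a-5p. In Mbnl1KO against Mbnl2KO they became 0.06 for let-7a-5p, 0.19 for let-7d-5p, 0.01 for let-7f-5p, 0.22 for let-7g-5p, 0.16 for let-7i-5p, 0.19 for let-7d-3p, 0.21 for miR-99a-5p and 0.11 for miR-100-5p. The family sum moved to 0.09 and 0.05 in these comparisons. With totals without miR-1a-3p and with all 9 libraries in 1 fit, let-7g-5p in Mbnl1KO against WT was at 0.02 in both and miR-125a-5p at 0.00 in both. The cause was not tested.

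Of the 9 guides, 1 was called in Mbnl1KO against WT with DESeq2's size factors and by DESeq2's Wald test, and 0 to 2 when a library was left out. In Mbnl1KO against Mbnl2KO, 3 were called by each of these, 0 with library totals, 1 with totals without miR-1a-3p, 1 with every miRNA of at least 1 count, 1 with all 9 libraries in 1 fit, and 1 to 3 when a library was left out. Of all miRNAs, 70 were called in Mbnl1KO against WT above a mean of 100, where fewer were tested. In Mbnl2KO against WT 7 were called with library totals, 10 above a mean of 100, and 4 to 28 when a library was left out.

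Leaving out 1 library changed the sign of small values. In Mbnl1KO against WT let-7g-5p ranged from -0.14 to 0.03, miR-125a-5p from -0.18 to 0.01, and let-7c-5p relative to the family from -0.18 to 0.00. In Mbnl2KO against WT let-7a-5p ranged from -0.06 to 0.13, let-7d-5p from -0.16 to 0.03, let-7e-5p from -0.02 to 0.13, let-7f-5p from -0.03 to 0.20, let-7g-5p from -0.04 to 0.20 (relative to the family -0.06 to 0.04), miR-99a-5p from -0.13 to 0.00, miR-125b-5p from -0.02 to 0.10 and miR-125b-1-3p from -0.54 to 0.05. In Mbnl1KO against Mbnl2KO miR-98-5p ranged from -0.02 to 0.27, let-7d-3p from -0.21 to 0.00, let-7i-3p from -0.04 to 0.14 and miR-99a-5p from -0.14 to 0.00.

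The replicate numbers gave no sign of pairing. Deviations of libraries with the same number correlated between -0.154 and 0.133, and those of libraries with different numbers between -0.160 and 0.138. With 3 libraries per group this cannot exclude a pairing. With the replicate number as a block, 1 of 9 guides was called in Mbnl1KO against Mbnl2KO (let-7c-5p, -0.50, while let-7b-5p at -0.41 and miR-125b-5p at -0.41 lost their calls) and 0 in both comparisons with WT. The block changed no other call that the text names except miR-125b-1-3p in Mbnl1KO against Mbnl2KO.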
